A study of Mus musculus with 7 samples.

Results

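The genes described here are 10 cytokine genes of microglia: the interleukin-12 family chains Il12a, Il12b, Il23a, Il27 and Ebi3, and Il15, Il6, Il10, Il1a and Tnf. They were chosen by name, as the rows with these symbols among 55401 rows of a gene count table, and each symbol matched 1 row. RNA was sequenced from microglia of the dorsal hippocampus of C57BL/6 mice aged 6 to 8 weeks, which the series title gives as male. Into the dorsal dentate gyrus of every mouse went AAV-RAM-Cre, a virus whose activity-dependent RAM promoter makes Cre in recently active neurons. In the 4 EYFP libraries the co-injected Cre-dependent virus was AAV-Dio-EYFP, a fluorescent protein control, and in the 3 ATG7 libraries it was AAV-Dio-Atg7-Flag, which overexpresses the autophagy gene Atg7 in those neurons. Cells were enriched with beads against CD11b, a surface protein of myeloid cells, while the transgene was directed at neurons. The labels do not say whether a library came from 1 mouse or a pool, nor when the mice were killed, and the p-values measure the spread between these libraries.

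The libraries held 35934210 to 55217119 counts. Levels are CPM, counts scaled to the library total and by trimmed means of M values (TMM), and a group level is a mean ± SD (n = 4 EYFP and n = 3 ATG7 libraries). Microglial markers were abundant in every library: P2ry12 lay between 2329 and 3496 CPM and Tmem119 between 1557 and 2211 CPM. Atg7 stood at 35.5 ± 1.68 CPM in EYFP against 34.9 ± 2.76 CPM in ATG7 (log2 fold change -0.0253, edgeR adjusted p = 0.939), which does not check the labels, since the overexpression was directed at neurons. The library labelled EYFP 3 stood apart in sex-linked genes, with Xist at 938.0 CPM against at most 0.573 CPM elsewhere and Ddx3y at 27.6 CPM against at least 121.1 CPM elsewhere, so the Il12b result is also given without it. Markers of choroid plexus summed to 46486 to 72410 CPM, more than the 10 microglial markers listed, which summed to 22331 to 27624 CPM. Of the 8 choroid plexus genes, 0 had a higher mean in ATG7.

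Cytokines of the interleukin-12 family are made of a pair of chains. A helical chain (p35 from Il12a, p19 from Il23a, p28 from Il27) joins a receptor-like chain (p40 from Il12b, or the product of Ebi3): p40 with p35 forms IL-12, p40 with p19 forms IL-23, and EBI3 with p28 forms IL-27. IL-12 and IL-23 are best known for driving T cell and natural killer (NK) cell responses, and p40 can also be secreted without a helical partner. Microglia make these chains and the inflammatory cytokines IL-1 alpha, TNF and IL-6 when innate receptors are engaged, while IL-10 restrains the same response and IL-15 sustains NK cells and memory T cells.

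The 250 bases before the annotated start are shown for Il12b, the member that passed the test, for Il12a, whose product is its partner in IL-12, and for Il1a, the other member whose groups did not overlap. They are from RefSeq on GRCm38.p6 and run 5′ to 3′ on the gene's strand, from chr11:44399813-44400062 (plus strand), chr3:68690394-68690643 (plus strand, the more upstream of its annotated starts) and chr2:129309973-129310222 (minus strand). Capitals mark motif matches.
Il12b: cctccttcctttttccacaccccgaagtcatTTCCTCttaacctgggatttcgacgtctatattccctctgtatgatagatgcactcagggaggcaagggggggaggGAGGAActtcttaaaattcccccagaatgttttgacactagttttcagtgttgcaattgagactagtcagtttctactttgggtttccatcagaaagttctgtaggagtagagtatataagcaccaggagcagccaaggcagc
Il12a: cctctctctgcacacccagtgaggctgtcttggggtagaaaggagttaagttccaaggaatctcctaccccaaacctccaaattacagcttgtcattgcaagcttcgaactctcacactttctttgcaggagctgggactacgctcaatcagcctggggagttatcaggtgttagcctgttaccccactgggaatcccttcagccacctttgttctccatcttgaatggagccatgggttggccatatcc
Il1a: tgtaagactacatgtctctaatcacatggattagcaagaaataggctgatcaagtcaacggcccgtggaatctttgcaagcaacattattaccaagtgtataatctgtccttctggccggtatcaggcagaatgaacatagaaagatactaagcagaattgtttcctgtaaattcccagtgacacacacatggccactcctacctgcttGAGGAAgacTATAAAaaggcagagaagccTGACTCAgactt
The motifs searched on both strands were PU.1 (GAGGAA), AP-1 (TGANTCA), the TATA box (TATAAA), ISRE (GAAANNGAAA), GAS (TTCNNNGAA), C/EBP (TTGCNNCAA) and the NF-kB consensus. Il12b held 2 PU.1 matches, at 219 to 214 and at 143 to 138 bases before the start, a motif present in 23.3% of the 32841 promoters of the same length. Il1a held 1 match each of PU.1, the TATA box (12.4% of promoters) and AP-1 (6.75%). No motif matched in the Il12a window, which says only that these letters are not there. RefSeq starts were matched for 6 of the 10 members. Of the others searched, Ebi3 and Il6 each had an NF-kB match at 44 to 35 bases before the start (7.25% of promoters), Ebi3 also a PU.1 and Il6 an AP-1 match, and Tnf had a PU.1 and a TATA box match. ISRE (2.98% of promoters), GAS (7.02%) and C/EBP (1.74%) matched in none of these members' windows.

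Il12b rose in ATG7, and it was the 1 member of the 8 tested that passed. It was also the member with the largest fold difference. The other 7 tested members had higher means in ATG7 and did not pass, and Il12a and Il23a were too low to test. Across all genes, 145 of 19199 passed (0.755%), with 132 higher in ATG7 (0.688%) and 13 lower (0.0677%), by the edgeR quasi-likelihood test with a two-sided Benjamini-Hochberg adjusted p under 0.05. The log2 fold change was above 0 for 8 of 8 members tested, with a median of 0.38, and above 0 for 49.2% of all genes tested, with a median of -0.0037. As the members were chosen with results of these data known, and only those above the filter on low counts are in the 8, these counts are a description.

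**Figure D1:**
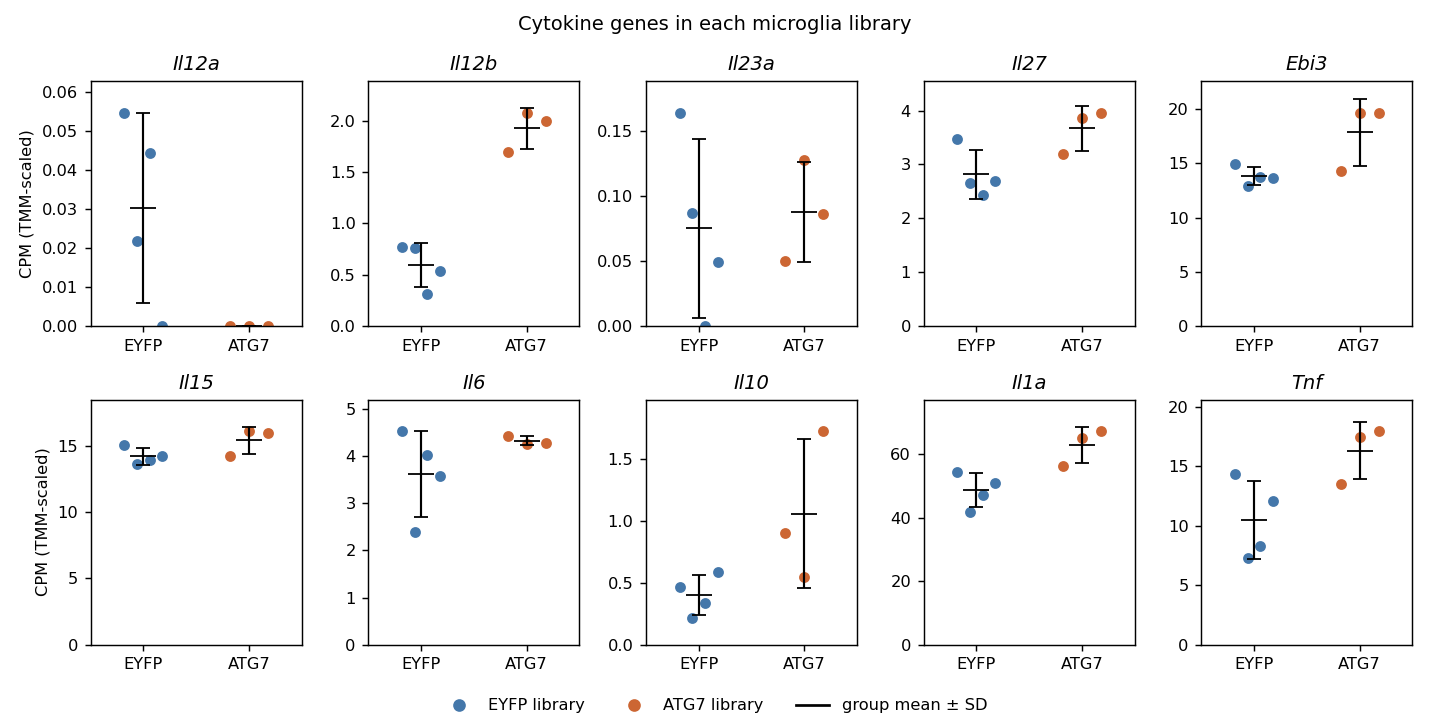
TMM-scaled CPM of each cytokine gene (y axis, from 0, a scale for each panel) in the 4 EYFP and 3 ATG7 libraries, with the group mean and SD. Il12b and Il1a are the genes in which every ATG7 library lies above every EYFP library. Il12a is at 0 in all 3 ATG7 libraries.

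The chain p40 is encoded by Il12b (ENSMUSG00000004296, chromosome 11, 44400063 to 44414033 in GRCm38). EYFP 1 to 4 had 0.764, 0.763, 0.310 and 0.540 CPM, whereas ATG7 1 to 3 had 1.70, 2.07 and 2.00 CPM. Every ATG7 library was above every EYFP library, EYFP 3 was the lowest of the 7, and the ATG7 libraries lay closer together than the EYFP ones. Groups that do not overlap with ATG7 higher were found in 6.33% of all genes tested. These values rest on 14 to 35 reads per EYFP library and 68 to 114 per ATG7 library. Il12b thus rose 3.24-fold between the group means, 0.594 ± 0.217 CPM in EYFP against 1.92 ± 0.199 CPM in ATG7. On the log2 scale the rise was 1.70 ± 0.304 (SE; 95% confidence interval 1.03 to 2.37), at an edgeR adjusted p of 0.0293. Single ATG7 libraries stood at 2.86, 3.49 and 3.36 times the EYFP mean. Because the libraries hold many cells, more cells that express the gene and more RNA per cell cannot be told apart.

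Without EYFP 3 the log2 fold change of Il12b was 1.47 and the gene still passed (edgeR adjusted p = 0.0346), as it did without EYFP 1 or 2. The call was lost without EYFP 4 (adjusted p = 0.107), ATG7 1 (0.0606), ATG7 2 (0.140) or ATG7 3 (0.143), at log2 fold changes of 1.64 to 1.78, and over all 14 alternatives the adjusted p ranged from 8.0e-05 to 0.293. Leaving out EYFP 1, 2, 3 or 4 gave 1.46%, 0.499%, 0.871% or 0.158% of all genes called, and leaving out ATG7 1, 2 or 3 gave 0.751%, 0.144% or 0.154%.

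Neither helical partner of p40 was measured above a few reads. Il12a (p35, ENSMUSG00000027776, chromosome 3, 68690644 to 68698547) had 2, 1, 2 and 0 reads in EYFP 1 to 4 and 0 in each ATG7 library. A count of 0 allows up to 3 reads, which is 0.0546 to 0.0749 CPM in the ATG7 libraries, so no difference was detectable at this depth. Il23a (p19, ENSMUSG00000025383, chromosome 10, 128296139 to 128298752) had 6, 4, 0 and 2 reads in the EYFP libraries, against 2, 7 and 4 in the ATG7 libraries. The groups overlapped, and in CPM the ATG7 libraries lay inside the EYFP range. Both genes fell below the filter on low counts. With no filter their edgeR adjusted p was 0.616 and 0.947, and Il12b in that fit was at 0.0015.

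The chains of IL-27 were more abundant and showed smaller differences. Il27 (p28, ENSMUSG00000044701, chromosome 7, 126589010 to 126594941) was at 3.47, 2.66, 2.44 and 2.70 CPM in EYFP 1 to 4, with 3.20, 3.86 and 3.95 CPM for the ATG7 libraries. ATG7 1 lay below EYFP 1, so the groups overlapped, while the other ATG7 libraries were above all EYFP libraries. The log2 fold change, 0.39 ± 0.183 (SE; 95% interval -0.0181 to 0.789), did not pass (edgeR adjusted p = 0.445). Ebi3 (ENSMUSG00000003206, chromosome 17, 55952640 to 55957022) had 14.9, 12.9, 13.8 and 13.7 CPM in the EYFP libraries, and 14.3, 19.6 and 19.6 CPM in the ATG7 libraries. Here too ATG7 2 and 3 were above every EYFP library and ATG7 1 was within their range. For Ebi3 the log2 fold change was 0.37 ± 0.120 (SE; 95% interval 0.107 to 0.636), at an edgeR adjusted p of 0.235. The ratio of Ebi3 to Il27, each per kilobase of exon, was 3.81 to 4.99 in EYFP and 3.96 to 4.51 in ATG7, so the groups overlapped in this ratio. The ratio of Il12b to Il27 on the same scale was 0.0661 to 0.149 in EYFP and 0.262 to 0.279 in ATG7, without overlap. Il12b alone did not overlap either, so this ratio restates its difference and is not a further result. The values of Il27, Ebi3 and Il1a are uncertain to the extent that reads of a gene on the other strand overlap theirs. Apobr overlaps exons of Il27, Gm16712 those of Ebi3 and Gm14023 those of Il1a. The strand setting of the counting is not given in the sources used here. None of the overlapping genes passed (edgeR adjusted p = 0.673, 0.695 and 0.610).

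**Figure D2:**
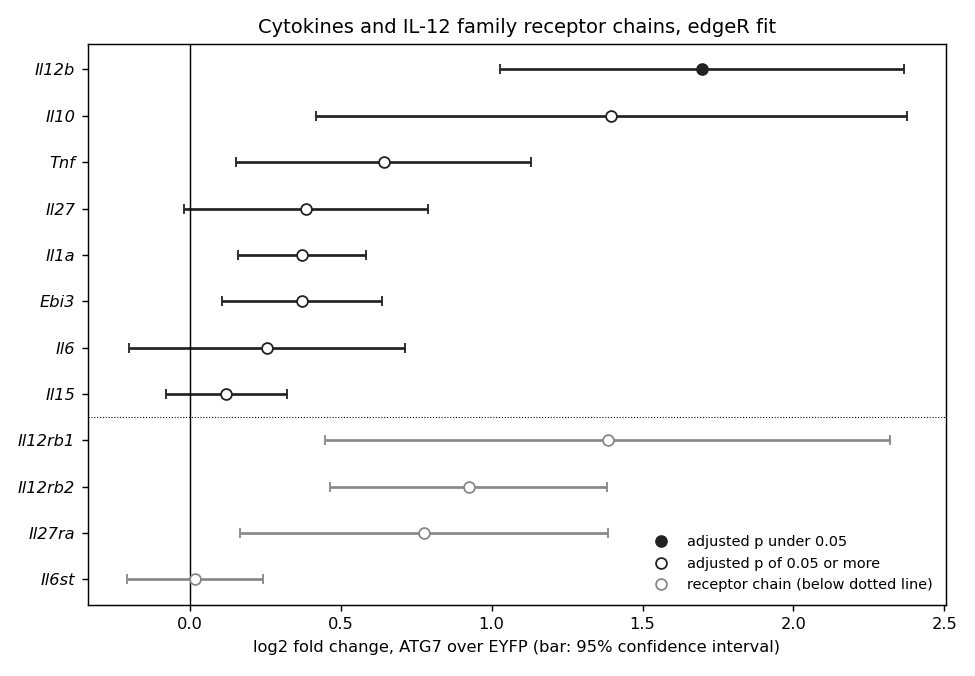
Log2 fold change of ATG7 over EYFP (x axis) with its 95% confidence interval for the 8 cytokine genes tested (above the dotted line) and 4 receptor chains of the interleukin-12 family (below it), from the edgeR fit of 4 EYFP and 3 ATG7 libraries. Il12b, at 1.70, has the filled point of a gene that passed, and Il6st sits at 0.02.

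Among inflammatory cytokines, Il1a was the most abundant member and the closest to the threshold. Il1a encodes IL-1 alpha, an alarm cytokine that signals through the IL-1 receptor (ENSMUSG00000027399, chromosome 2, 129299610 to 129309972). EYFP 1 to 4 had 54.3, 41.8, 47.04 and 50.9 CPM, and the ATG7 libraries 56.3, 65.0 and 67.1 CPM. The groups did not overlap, but ATG7 1 was only just above EYFP 1. The mean was 48.5 ± 5.36 CPM without and 62.8 ± 5.72 CPM with the ATG7 virus, a ratio of 1.29. Its log2 fold change, 0.37 ± 0.0965 (SE; 95% interval 0.160 to 0.585), missed the threshold in the edgeR fit (adjusted p = 0.131). It passed with the DESeq2 Wald test (adjusted p = 0.0330), which called 3.24% of the genes, and in the edgeR fit with no filter (0.0319), which called 0.9%.

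Tnf, which encodes the inflammatory cytokine TNF (ENSMUSG00000024401, chromosome 17, 35199381 to 35202007), had 14.4, 7.26, 8.31 and 12.04 CPM in EYFP 1 to 4. The ATG7 libraries had 13.5, 17.5 and 17.9 CPM. EYFP 1 exceeded ATG7 1, and the EYFP libraries varied 1.98-fold among themselves. With a log2 fold change of 0.64 ± 0.219 (SE; 95% interval 0.153 to 1.13), Tnf did not pass (edgeR adjusted p = 0.274). Il6 (ENSMUSG00000025746, chromosome 5, 30013114 to 30019981), whose product acts on many immune and glial cells, had 4.53, 2.40, 4.03 and 3.58 CPM in the EYFP libraries, and 4.44, 4.27 and 4.28 CPM in the ATG7 libraries. All ATG7 values lay inside the EYFP range and close to each other. Il6 differed by 0.25 ± 0.208 (SE; 95% interval -0.202 to 0.712) on the log2 scale, at an edgeR adjusted p of 0.699, and by 0.0933 without EYFP 2, the lowest library.

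Il10 encodes the anti-inflammatory cytokine IL-10 (ENSMUSG00000016529, chromosome 1, 131019845 to 131024974). It was at 0.464, 0.218, 0.332 and 0.589 CPM in EYFP 1 to 4, from 10 to 24 reads, whereas ATG7 1 to 3 had 0.899, 0.546 and 1.72 CPM, from 36, 30 and 80 reads. ATG7 3 was more than any other library and ATG7 2 was below EYFP 4. The log2 fold change, 1.397 ± 0.445 (SE; 95% interval 0.418 to 2.38), came next after that of Il12b in size and did not pass (edgeR adjusted p = 0.226). Without ATG7 3 it was 0.84 (adjusted p = 0.662). Il15 (ENSMUSG00000031712, chromosome 8, 82331632 to 82403222), a growth factor for NK cells and memory T cells, varied least between the EYFP libraries of the 10 members. The EYFP libraries had 15.1, 13.7, 13.9 and 14.2 CPM and the ATG7 libraries 14.3, 16.1 and 15.97 CPM. ATG7 1 was again inside the EYFP range, and the difference on the log2 scale was 0.12 ± 0.0906 (SE; 95% interval -0.0784 to 0.320), at an edgeR adjusted p of 0.666.

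The members differed widely in level. In CPM per kilobase of exon, a scale that allows comparison between genes, the EYFP means ran from Il1a at 24.6 ± 2.72 through Ebi3 at 11.99 ± 0.713, Tnf at 6.40 ± 2.01, Il15 at 6.29 ± 0.269, Il27 at 2.76 ± 0.440 and Il6 at 1.497 ± 0.376 to Il10 at 0.306 ± 0.123 and Il12b at 0.302 ± 0.110. Il23a and Il12a followed at 0.0334 ± 0.0308 and 0.0177 ± 0.0143. Tnf and Il15, Il10 and Il12b, and Il23a and Il12a were neighbours in this order whose EYFP libraries overlapped, while every other neighbouring pair was separated in all 4 libraries. In ATG7, Il12b stood at 0.978 ± 0.101 CPM per kilobase, still below Il6 at 1.78 ± 0.0401. The coefficient of variation in EYFP was 36.5% for Il12b and 40.1% for Il10, and 4.28% for Il15 and 5.95% for Ebi3.

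**Figure D3:**
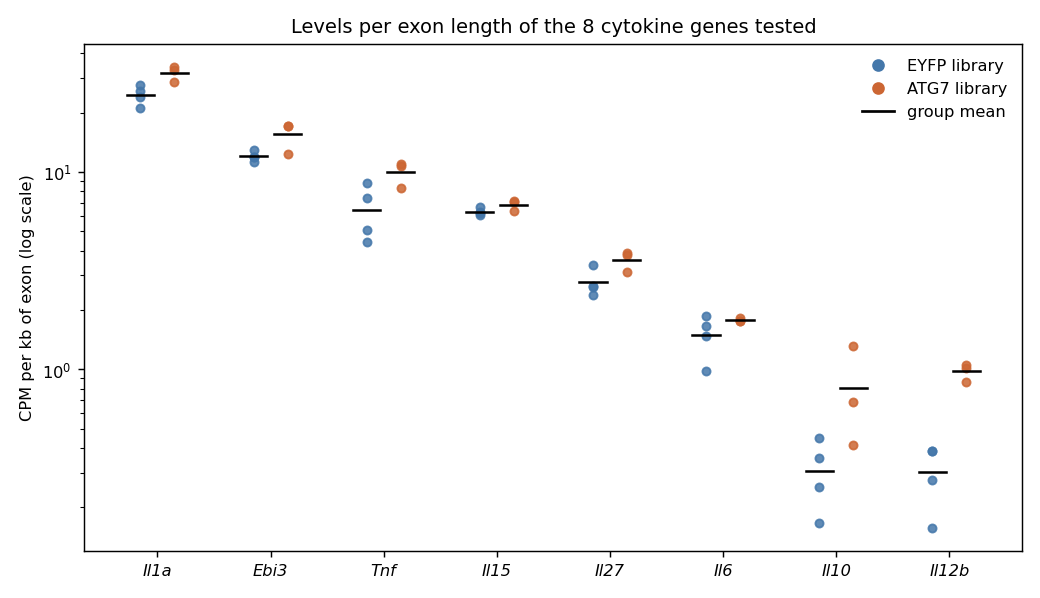
CPM per kilobase of exon (log y axis) of the 8 cytokine genes tested, ordered by their EYFP mean; points are libraries and bars group means. Il1a lies highest at 24.6 in EYFP, and Il10 and Il12b lie together at 0.306 and 0.302 in EYFP.

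Receptor chains of the interleukin-12 family were few in reads apart from the shared signalling chain Il6st. None of the 4 tested passed, and Il23r, which confers binding of IL-23, had 0 to 7 reads per library and was not tested. Il12rb1, which binds p40, had 0.846, 0.545, 0.199 and 0.319 CPM in EYFP 1 to 4 against 1.52, 0.891 and 1.31 CPM in the ATG7 libraries, for a log2 fold change of 1.38 (SE 0.425, edgeR adjusted p = 0.205). Il12rb2, the second chain of the IL-12 receptor, was at 1.01 to 1.33 CPM in EYFP and 2.04 to 2.53 CPM in ATG7, with a log2 fold change of 0.92 (SE 0.208, adjusted p = 0.0836). For Il27ra, a chain of the IL-27 receptor, the ranges were 0.676 to 1.03 and 1.22 to 2.15 CPM, and the log2 fold change was 0.77 (SE 0.277, adjusted p = 0.285). In these 3 genes the groups did not overlap, as in 6.33% of all genes tested with ATG7 higher. Il6st, at 500.02 ± 41.3 CPM in EYFP and 505.6 ± 61.2 CPM, had a log2 fold change of 0.02, whose sign changed in 5 of the 14 alternatives.

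In the other pathway lists described here, 0 to 3 genes of each passed, all higher in ATG7, against 0.688% of all genes tested. Of 12 receptors and antagonists of the other members, 1 passed: Il2rg, the common gamma chain through which IL-15 signals, rose by 1.31 ± 0.185 (SE) on the log2 scale, with 5.33 ± 1.13 CPM in EYFP and 13.2 ± 2.35 CPM in ATG7 (edgeR adjusted p = 0.0118). Its call was lost without EYFP 4 (adjusted p = 0.0509), ATG7 2 (0.0666) or ATG7 3 (0.0921). The median log2 fold change of this list was 0.15. Stat4, which relays IL-12 signals in lymphocytes, had a log2 fold change of 0.89 (edgeR adjusted p = 0.548), with overlapping groups.

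Of 18 transcription factors and inhibitors known to act at cytokine genes, 3 passed, with a median log2 fold change of 0.25 over the list. Among all genes tested, 0.688% passed as higher in ATG7. Nfkb2, the precursor of the NF-kB subunit p52, rose by 0.56 on the log2 scale, from a mean of 27.99 ± 1.55 CPM to one of 41.2 ± 6.47 CPM (edgeR adjusted p = 0.0354). Bcl3, an atypical NF-kB inhibitor protein that binds in the nucleus, rose from 2.86 ± 0.296 to 5.79 ± 0.830 CPM, or 1.02 (adjusted p = 0.0206). Irf1, an interferon regulatory factor, rose from 46.7 ± 5.57 to 67.4 ± 8.39 CPM, or 0.53 (adjusted p = 0.0483), and lost its call in 9 of the 14 alternatives, with an adjusted p of up to 0.237 when 1 library was left out (EYFP 2, 3 or 4 or any ATG7 library). Nfkb2 lost its call without EYFP 2, 3 or 4 or ATG7 2 or 3 (adjusted p of up to 0.188), and Bcl3 without EYFP 4 or ATG7 2 or 3 (up to 0.114). Rel, Rela, Irf8 and Spi1, factors with known roles at Il12b, had overlapping groups and log2 fold changes of 0.19, 0.0096, 0.25 and 0.0907 (adjusted p = 0.487, 0.977, 0.342 and 0.754). The sign for Rela changed in 4 of the 14 alternatives, library size scaling among them. In 7 of the 18 genes listed the groups did not overlap, with ATG7 higher, against 6.33% of all genes tested. These included Cebpb, Nfil3 and Relb, which did not pass, at log2 fold changes of 0.77, 0.70 and 0.50 (adjusted p = 0.0735, 0.0618 and 0.0761).

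None of 12 genes of cytokine mRNA decay and release passed. Their smallest p belonged to Rhbdf2, a cofactor of the protease that sheds TNF, at a log2 fold change of 0.30 (edgeR adjusted p = 0.1499). Among 26 other cytokines, 14 were tested and 1 passed. Csf1, a survival factor for microglia, rose by 0.61 on the log2 scale, the EYFP mean being 42.7 ± 3.31 CPM and the ATG7 mean 65.1 ± 3.13 CPM (adjusted p = 0.00705). Il1b, whose product signals through the same receptor as IL-1 alpha, was at 9.62 to 13.5 CPM in EYFP and 13.7 to 22.1 CPM in ATG7, with a log2 fold change of 0.62 (adjusted p = 0.159). Ifng, the main product of lymphocytes stimulated by IL-12, had 1, 0, 0 and 1 reads in the EYFP libraries against 3, 6 and 5 in the ATG7 libraries, too few to test.

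Markers of T and NK cells were higher in ATG7 on average, as Il12b was, though few passed. All 14 T and NK cell markers had a higher mean in ATG7, in 9 of them the groups did not overlap, and 1, Lck, passed (log2 fold change 1.61, edgeR adjusted p = 0.0192). The groups overlapped in Cd4, Gzma and Prf1 and in the NK cell markers Klrb1c and Ncr1 (adjusted p = 0.755 and 0.640 for the last pair). Across all genes tested, 49.2% had a log2 fold change above 0 and 0.688% passed as higher. Groups without overlap and with ATG7 higher were found in 6.33%. None of the 14 was at 0 in any library: the T cell receptor complex gene Cd3e had 8 to 24 reads in EYFP and 25 to 77 in ATG7. Their summed level was 10.9 to 18.4 CPM in EYFP and 21.3 to 41.6 CPM in ATG7, lowest in EYFP 3, which was also lowest for Il12b. The largest part of this sum in every library was Cd4, at 6.07 to 8.26 CPM in EYFP and 7.62 to 9.11 CPM in ATG7. Its log2 fold change was 0.24 (edgeR adjusted p = 0.581). Il10 and this sum were both highest in ATG7 3 but did not follow each other in every library: EYFP 4, with the highest Il10 of the EYFP libraries at 0.589 CPM, had a sum of 12.9 CPM, and ATG7 2, with 0.546 CPM of Il10, had a sum of 25.2 CPM. B cell markers summed to 22.5 to 26.0 CPM in EYFP and 29.6 to 37.9 CPM in ATG7, and 1 of the 3 tested, Cd22, passed (11.6 ± 1.71 CPM in EYFP and 23.1 ± 2.04 CPM in ATG7, log2 fold change 0.997, edgeR adjusted p = 0.00705). Cd79b and Cd79a, the others tested, had overlapping groups and log2 fold changes of -0.115 and -0.0087 (adjusted p = 0.822 and 0.996), and the median of the 3 was -0.0087. Of 10 dendritic cell markers, 9 had a higher mean in ATG7 and 1, Ccr7, passed (1.76, adjusted p = 0.0182). The summed level of these 10, mostly Fscn1, was 449.4 to 543.1 CPM in EYFP and 401.8 to 502.3 CPM in ATG7. Lck lost its call without EYFP 4, ATG7 2 or ATG7 3, and Ccr7 without ATG7 2 or 3 (adjusted p of up to 0.115 for each). Xcr1 and Clec9a, defining markers of a dendritic cell subset, were not at 0 in any library and had log2 fold changes of 0.11 and 0.19 (adjusted p = 0.934 and 0.901), which changed sign when ATG7 3 was left out (-0.140 and -0.0464). In the other 8 marker lists the summed levels of the groups overlapped. ATG7 3, the library with the highest Il10, also had the highest sum of blood monocyte and neutrophil markers (191.2 CPM, against 51.4 to 120.1 CPM in the other libraries) and of endothelial cell and pericyte markers (1061 CPM, against 459.3 to 852.5 CPM). The part of these cell types in the Il12b and Il10 values was not tested.

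**Figure D4:**
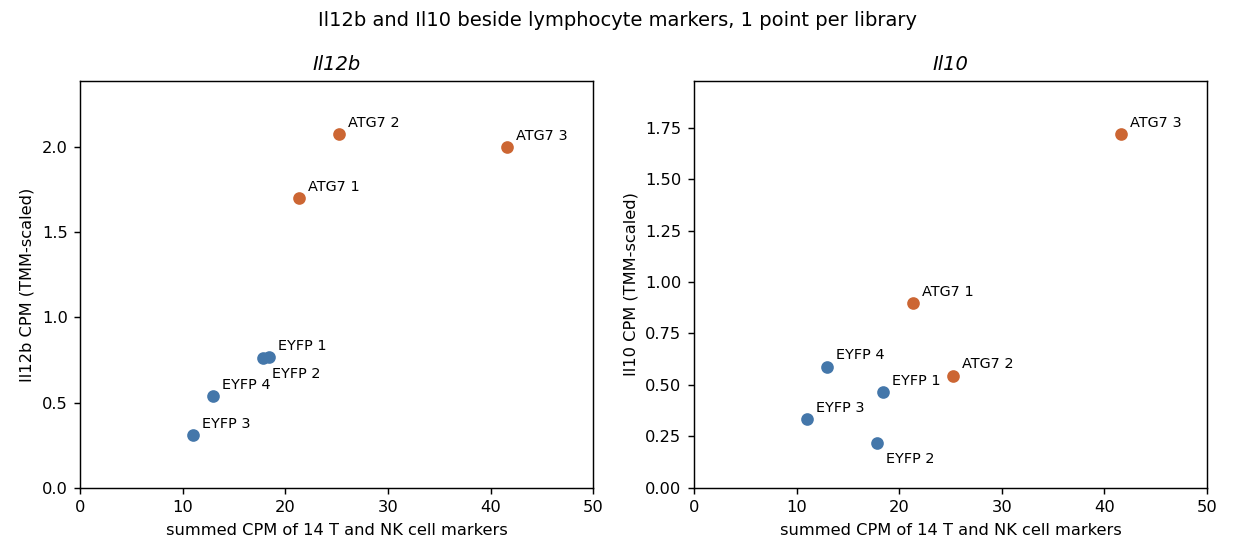
Il12b (left) and Il10 (right) in CPM on the y axis against the summed CPM of 14 T and NK cell markers on the x axis, 1 point for each of the 7 libraries. Cd4 is the largest part of the sum in each library. The ATG7 libraries lie at 21.3 to 41.6 CPM of markers, right of the EYFP libraries at 10.9 to 18.4 CPM, and ATG7 3 has the highest marker sum and the highest Il10, while ATG7 2 lies below EYFP 4 in Il10.

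The genes whose levels across the 7 libraries were most like Il12b were found by the root mean square difference of log2 CPM after centring each gene on its own mean, among 15052 other genes with a mean of at least 1 CPM. They were Ifi209, Iigp1, Cst7, Gbp6 and Ifi204, with differences of 0.149, 0.159, 0.159, 0.162 and 0.170. Ifi209 and Ifi204 belong to the interferon-inducible Ifi200 family, Iigp1 is an immunity-related GTPase, Gbp6 a guanylate-binding protein and Cst7 an inhibitor of cysteine proteases. The log2 fold changes of these 5 were 1.44, 1.41, 1.84, 1.67 and 1.39, in the same order. Their edgeR adjusted p was 0.0840, 0.0272, 0.0105, 0.00705 and 0.0768, so Ifi209 and Ifi204 did not pass. Iigp1 lost its call in 7 of the 14 alternatives, Cst7 in 3 and Gbp6 in 1. Ifi204 gained a call in 5 of the 14 and Ifi209 in 3. Without EYFP 3, the library that stood apart in sex-linked genes, their edgeR adjusted p was 0.0030 and 0.0036. All 5 of the genes most like Il12b were lowest in EYFP 3, as Il12b was. They were chosen for likeness to Il12b over these same libraries, so their higher levels in ATG7 follow from the choice and are a description. Of the 6 other members with a mean of at least 1 CPM, Tnf was the nearest at 0.645 and rank 261, while Il10, Il12a and Il23a were below that level and were not compared.

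**Figure D5:**
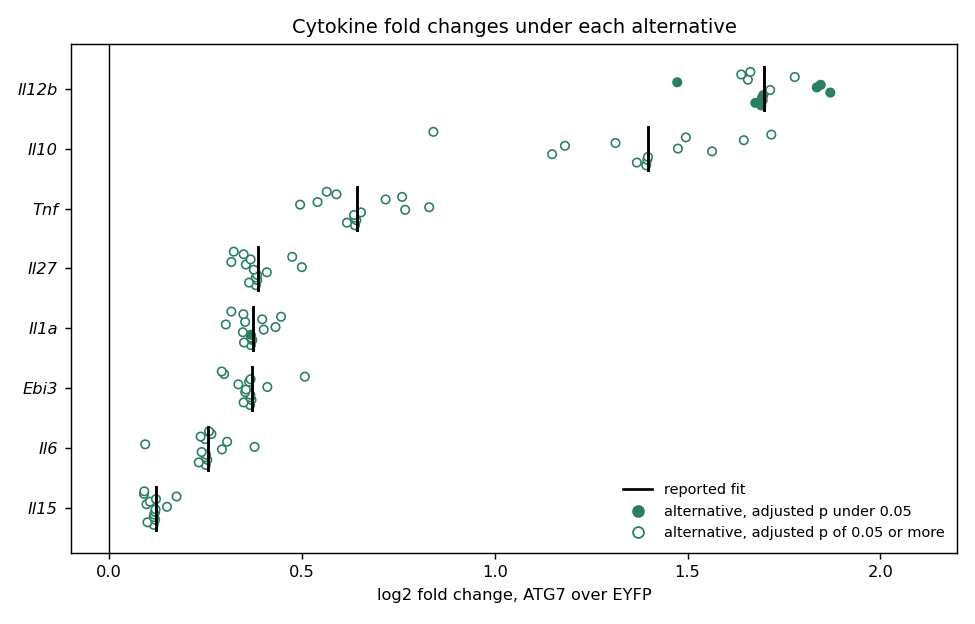
Log2 fold change of ATG7 over EYFP (x axis) of the 8 cytokine genes tested in the reported fit (bar) and under each alternative (points; filled where the adjusted p was under 0.05). Every point lies above 0; Il12b spans 1.47 to 1.87 and Il10 0.84 to 1.72.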

How the data were processed

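The table held 55401 Ensembl genes and 7 columns of raw counts as deposited, matched to libraries by name (0 columns unmatched). The submitters' processing notes name fastp 0.20.1, HISAT2 2.0.5, featureCounts and the builds mm10 and GRCm38. The annotation release, strand setting and treatment of shared reads are not given in the sources used here. The 37 mitochondrial genes were at 0 in every library. Symbols, coordinates and merged exon lengths came from GENCODE M21 (GRCm38), which matched 55141 identifiers.

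Groups came from sample titles. All 7 libraries were fitted with edgeR 4.0.16 in R 4.3.3 (quasi-likelihood, robust, TMM factors, filterByExpr, no covariate), with Benjamini-Hochberg adjustment over 19199 genes. The SE is the absolute log2 fold change over the square root of F. Log2 CPM used a prior count of 2. A count of 0 was read as allowing 3 counts; the floor and the counts behind each value cover counting error only. Code was tested on simulated data. The members and lists were chosen with earlier results of these data known. All members were named; of each pathway list, the genes that passed, otherwise the gene with the smallest p, with the interleukin-12 family receptor chains; and the 5 genes most like each member that passed. Stat4, Rel, Rela, Irf8, Spi1, Cebpb, Nfil3, Relb, Il1b, Ifng, the markers and the genes overlapping members were named after their values were seen. Alternatives were other scalings, filters and tools (DESeq2 1.42.0, limma 3.58.1), a replicate block and leaving out each library. One list of signalling genes is not reported here.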

Additional observations from a re-analysis of the deposited data

Results flagged for a closer look

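In 51 values compared within the 4 EYFP libraries, 2 had 1 library far from the others, where chance gives 2.55. Csf1 was at 47.6 CPM in EYFP 1, against 40.5 to 41.5 CPM in EYFP 2 to 4 and at least 62.6 CPM in the ATG7 libraries. The 10 neuron markers summed to 48.9 CPM in EYFP 1, against 24.7 to 26.3 CPM in EYFP 2 to 4 and 30.1 to 32.0 CPM in ATG7. Without EYFP 1 the log2 fold change of Il12b was 1.84 (edgeR adjusted p = 0.0207).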

How the results depend on the processing

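The log2 fold changes of the 8 members tested were positive under each of the 14 alternatives; Il10 could not be fitted at a mean CPM of at least 1, which removed it. Of 111 member values, 104 kept their call, 5 lost it and 2 gained it. Il12b lost its call with the replicate block (log2 fold change 1.71, adjusted p = 0.293) and in 4 of the 7 fits that left out a library, in which its log2 fold change ranged from 1.47 to 1.85. Il1a gained one with no filter (0.37) and with the DESeq2 Wald test (0.37), so that 2 members passed in each, and 0 passed with the replicate block. Leaving out a library gave 0 to 1 passing members, and 28 to 277 passing genes against 145. Over all genes 297 passed with no filter (234 higher, 63 lower), 572 with DESeq2 (404 higher, 168 lower) and 0 with the replicate block. Same-numbered libraries deviated from their group means with correlations over genes of -0.0609, -0.182 and 0.0664, and differently numbered ones with -0.145 to 0.215. These ranges overlap, and with so few libraries they cannot tell whether the replicate numbers pair the libraries. Il6st reversed with library size scaling (-0.0054) and limma-voom (-0.0202), and ranged from -0.0671 to 0.11 when a library was left out. Rela reversed with library size scaling (-0.0116) and the replicate block (-0.0123) and ranged from -0.0368 to 0.0451 when a library was left out, Xcr1 with the replicate block (-0.0406; range -0.140 to 0.389), and Clec9a ranged from -0.102 to 0.374 when a library was left out. Of 388 values of the other named genes that were compared under the alternatives, 320 kept their call, 44 lost it, 11 gained it and 13 reversed. Reads per library limit what can be said of Il12a, Il23a and Il23r.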
